A study of Mus musculus with 6 samples.

Results

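YAP5SA and YAP6SA, forms of the transcriptional coactivator YAP, were compared directly in mouse cardiomyocytes (CMs), with each gene tested between the 2 YAP5SA libraries and the 2 YAP6SA libraries. These 4 libraries are all those of both groups, out of 6 in the series, and the others came from GFP hearts, which serve as a reference level and enter only alternative fits that use 5 or 6 libraries. Wildtype ICR mice received 1e+11 viral genomes of AAV9 under the skin at 6 d of age, and their hearts were collected at 9 d. In every group the virus used the cTnT promoter, which restricts expression to CMs, and carried cTnT-YAP5SA, cTnT-YAP6SA or, in the controls, cTnT-GFP. YAP5SA has its serines that the kinase LATS phosphorylates changed to alanine. YAP6SA carries those changes and 1 further serine-to-alanine change, which disrupts the binding of YAP to TEAD. Nuclei that bound an antibody to PCM1, a protein that lies around the nuclei of CMs, were pulled down from 2 hearts per virus, and poly-A libraries that do not keep the strand were made from their RNA. The hearts kept their own Yap1 gene in all groups. The libraries of a group came from different batches, and the replicate number in the labels is the batch number, so pairs of values below are given as batch 1 and then batch 2.

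YAP is held in the cytoplasm when LATS kinases of the Hippo pathway phosphorylate it. Unphosphorylated YAP enters the nucleus and, since it has no DNA-binding domain, reaches most of its target genes through the TEAD factors, which bind the DNA sequence GGAATG. In the heart, YAP is known for driving CM proliferation before and shortly after birth, after which CMs leave the cell cycle and turn to fatty acid oxidation. A comparison of the 2 forms therefore asks which RNAs differ between activated YAP with and without the change that disrupts its TEAD contact. The study also reports that less YAP6SA than YAP5SA lay in the nucleus of CMs, and more in the cytoplasm. The part of this difference in location in the RNA differences was not tested.

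The YAP5SA libraries held 14552847 and 17197114 reads on genes and the YAP6SA libraries 19615627 and 17176301. Levels are given in CPM, the usual counts per unit of library size, with TMM factors, and a gene with 0 counts may have had up to 3, a limit for counting error alone. The 2 libraries of a group differed by far more than sampling noise, with a chi-square per degree of freedom of 49.8 for YAP5SA and 36.04 for YAP6SA. CM markers were abundant in all libraries. Tnnt2, cardiac troponin T, lay at 14921 and 10825 CPM in YAP5SA OE CMs and 14026 and 21309 CPM in YAP6SA OE CMs, and the summed level of the 10 CM markers was 46426 and 33105 CPM and 51324 and 62571 CPM. In both batches the sum was lower with YAP5SA. Of these markers Ryr2 and Pln passed the test, both as lower and neither without the batch term. Markers of endothelial cells (14 tested) and of fibroblasts (12 tested) were present too, at summed levels of 971 and 756 and 1835 and 1299 CPM with YAP5SA and 1092 and 687 and 2060.1 and 1099 CPM with YAP6SA. None of the endothelial markers passed the test, whereas among the fibroblast markers Ddr2 was higher and Mfap4, with groups that overlap, lower by 0.72 on the log2 scale, a call lost without the batch term. Xist, the RNA of the inactive X chromosome, was at 0 and 587 CPM with YAP5SA and 0.411 and 644 CPM with YAP6SA. It thus differed between the batches in both groups, so an effect of sex and one of batch cannot be told apart here. In such bulk libraries, fewer cells of a type and less RNA per cell cannot be told apart.

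YAP5SA OE CMs and YAP6SA OE CMs differed in 1916 of the 13206 genes tested. Of these, 1226 were higher in YAP5SA OE CMs (9.28% of the genes tested) and 690 were lower (5.22%). Counts of called genes in the gene lists below are to be read against these shares. The higher genes moved further, with a median log2 fold change of 1.38 against -0.91 for the lower genes, and 314 genes rose by more than 2 on the log2 scale against 32 that fell by as much. The median of all genes tested was 0.00. The test was edgeR's quasi-likelihood test on the counts of the 4 libraries, with a term for the batch, for genes whose median log2 CPM was above 1 in either group, and edgeR FDR below stands for its p adjusted by Benjamini-Hochberg across the whole set of genes tested, called under 0.05. The labels do not tie each library to 1 heart, so the p-values measure spread between these libraries, as left after the batch term. With 4 libraries, little of this spread can be estimated for a single gene, and edgeR draws most of it from the other genes. Of the genes called, 218 of the higher and 35 of the lower ones passed the filter only through the group in which they were high, so that they had to differ and their FDR is a description only. The medians of the called genes and the counts of 314 and 32 include these genes. The larger size of the rises is therefore a description too. Without the batch term, that is without the replicate block that pairs the libraries, 723 genes were higher and 131 lower, and all of them were among the genes called with it.

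**Figure D1:**
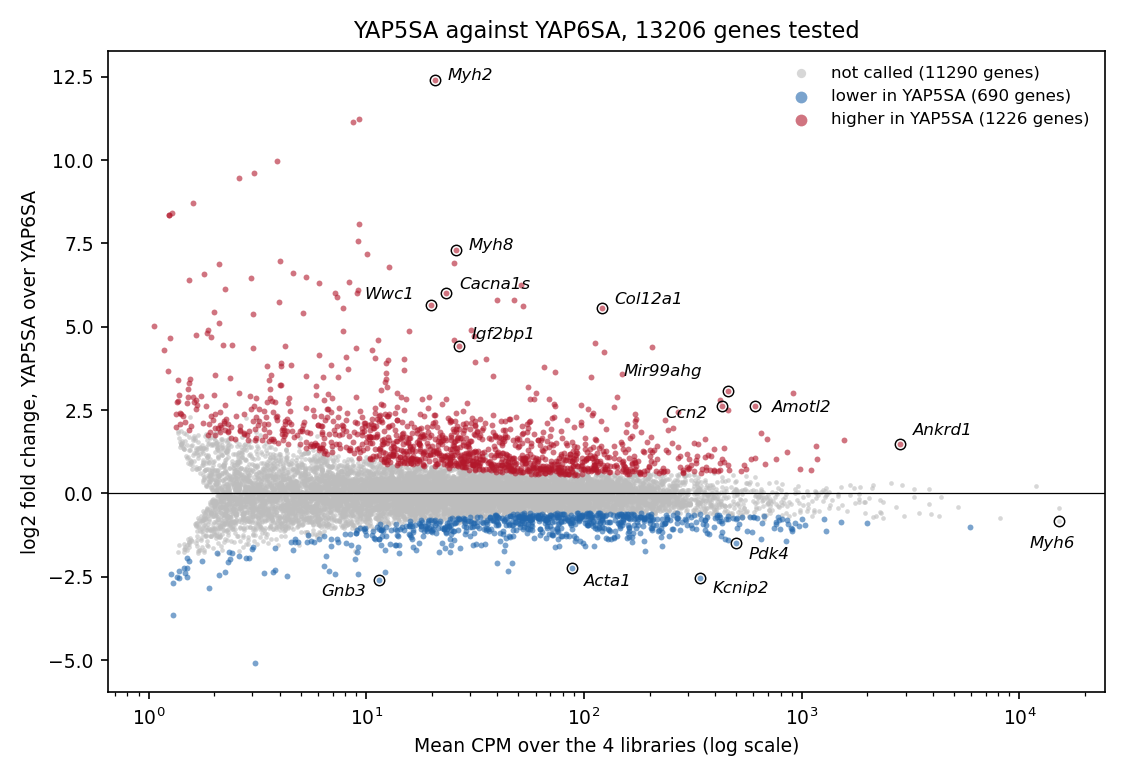
Log2 fold change of YAP5SA over YAP6SA (vertical axis) against the mean CPM over the 4 libraries (horizontal axis, log scale), with 1 point per gene tested. Red points are the 1226 genes higher in YAP5SA, blue points the 690 genes lower in YAP5SA, and grey points genes that did not pass the test. Circles and names mark 15 genes described in the text, and the points above 7 on the vertical axis are genes with few or 0 counts in YAP6SA, such as Myh2 and Myh8.

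The 2 batches gave the same direction for all 1916 genes called. The genes were called on these same libraries with a term for the batch. Agreement of the batches and separation of the groups therefore follow largely from the call and do not test it. Both YAP5SA libraries lay above both YAP6SA libraries for 1221 of the higher genes, an order that 29.7% of all genes tested had, and below them for 672 of the lower genes, against 28% of all. The size differed between batches. Within batch 1 the median difference in log2 CPM was 1.05 for the higher genes and -0.64 for the lower genes, and within batch 2 it was 1.68 and -1.20. The difference was the larger in batch 2 for 1061 of the 1226 higher and 610 of the 690 lower genes. With 1 library per group in a batch, this difference between batches was not tested. The calls also rest on particular libraries. In fits of the 5 other libraries of the series, leaving out the YAP5SA library of batch 1 gave 2154 higher and 1892 lower genes, leaving out that of batch 2 gave 733 and 336, leaving out the YAP6SA library of batch 1 gave 826 and 391, and leaving out that of batch 2 gave 326 and 68. No gene called in the comparison turned its direction in any of these fits, which reuse libraries of the comparison and so do not test the directions anew. As a reference level, the GFP mean was closer on a log scale to YAP6SA than to YAP5SA for 1201 of the higher and 630 of the lower genes. For 506 of the higher and 342 of the lower genes, the YAP6SA mean lay beyond the GFP mean, on the side away from YAP5SA. These genes were called for a difference between the 2 forms, and the share over all genes tested was not worked out.

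**Figure D2:**
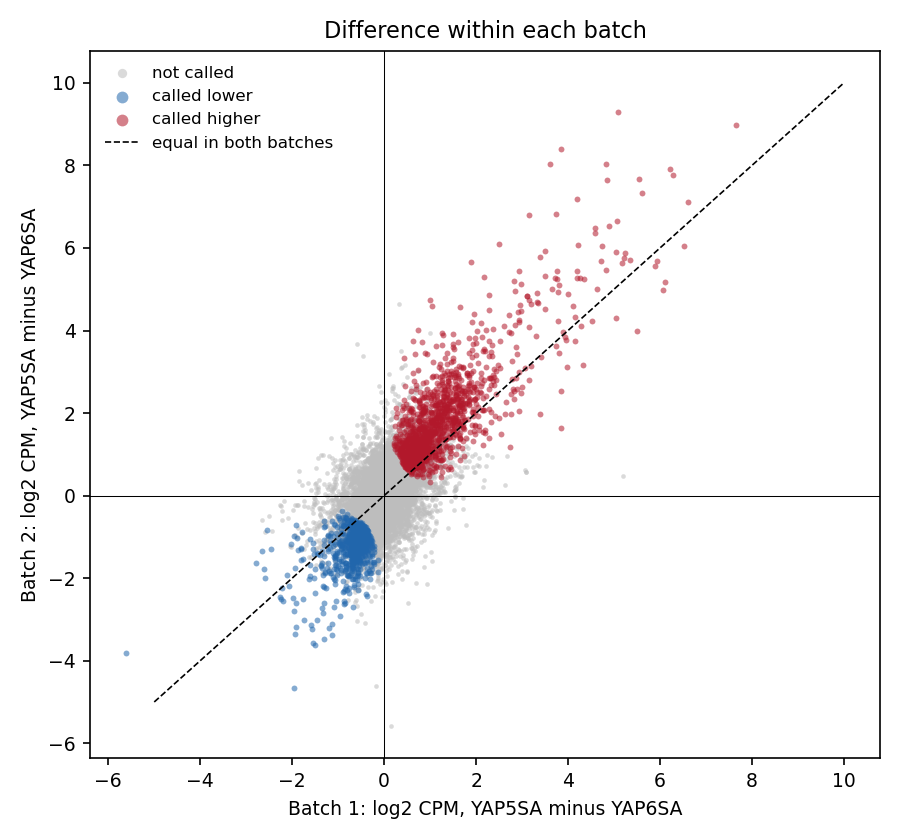
Difference in log2 CPM between YAP5SA and YAP6SA within batch 1 (horizontal axis) and within batch 2 (vertical axis), with 1 point per gene tested, red for genes called higher, blue for genes called lower and grey for the rest. The dashed line marks equal differences: 1061 of the 1226 red points lie above it and 610 of the 690 blue points lie below it, so most called genes differed more in batch 2.

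Genes that YAP is known to switch on through TEAD were higher with YAP5SA for the most part. Of 25 such targets tested out of 27 listed, 17 rose and 0 fell in YAP5SA OE CMs relative to YAP6SA OE CMs, and the median log2 fold change of those tested was 1.16. Ccn2, a secreted matricellular protein and a textbook YAP target, was at 516 and 971 CPM in the YAP5SA libraries, 98.2 and 133 CPM in the YAP6SA libraries and 99.9 and 42.7 CPM in GFP (log2 fold change 2.63, standard error 0.22, edgeR FDR 2.21e-06). Its relative Ccn1 was at 255 and 667 CPM with YAP5SA, 69.1 and 84.6 with YAP6SA and 127 and 87.8 with GFP (log2 fold change 2.43, standard error 0.25, edgeR FDR 1.66e-05). For both genes the lowest YAP5SA library lay above the highest YAP6SA library, while both YAP6SA libraries lay just below those of GFP for Ccn1 and overlapped them for Ccn2. Ankrd1, a cardiac ankyrin repeat protein of the sarcomere and nucleus, stood at 3492 and 4882, 1338 and 1607 and 727 and 876 CPM in the same order of groups, so its YAP6SA libraries lay between the GFP and the YAP5SA libraries (log2 fold change of YAP5SA over YAP6SA 1.49, standard error 0.26, edgeR FDR 0.00113). Amotl2, an angiomotin that binds YAP and holds it out of the nucleus, was at 692 and 1425 CPM against 135 and 189 CPM (log2 fold change 2.64, edgeR FDR 3.40e-06). The largest rise of the list was that of Wwc1, which encodes the LATS activator KIBRA and passed the filter through the YAP5SA libraries alone, with 18.5 and 59.9 CPM against 1.18 and 0.0610 CPM (log2 fold change 5.65, edgeR FDR 5.14e-05). The stress gene Gadd45b and the kinase gene Nuak2 rose by 2.24 and 2.10 on the log2 scale. Without the replicate block 14 of the targets were called higher, and leaving out single libraries, in the order above, gave 20, 16, 16 and 11.

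**Figure D3:**
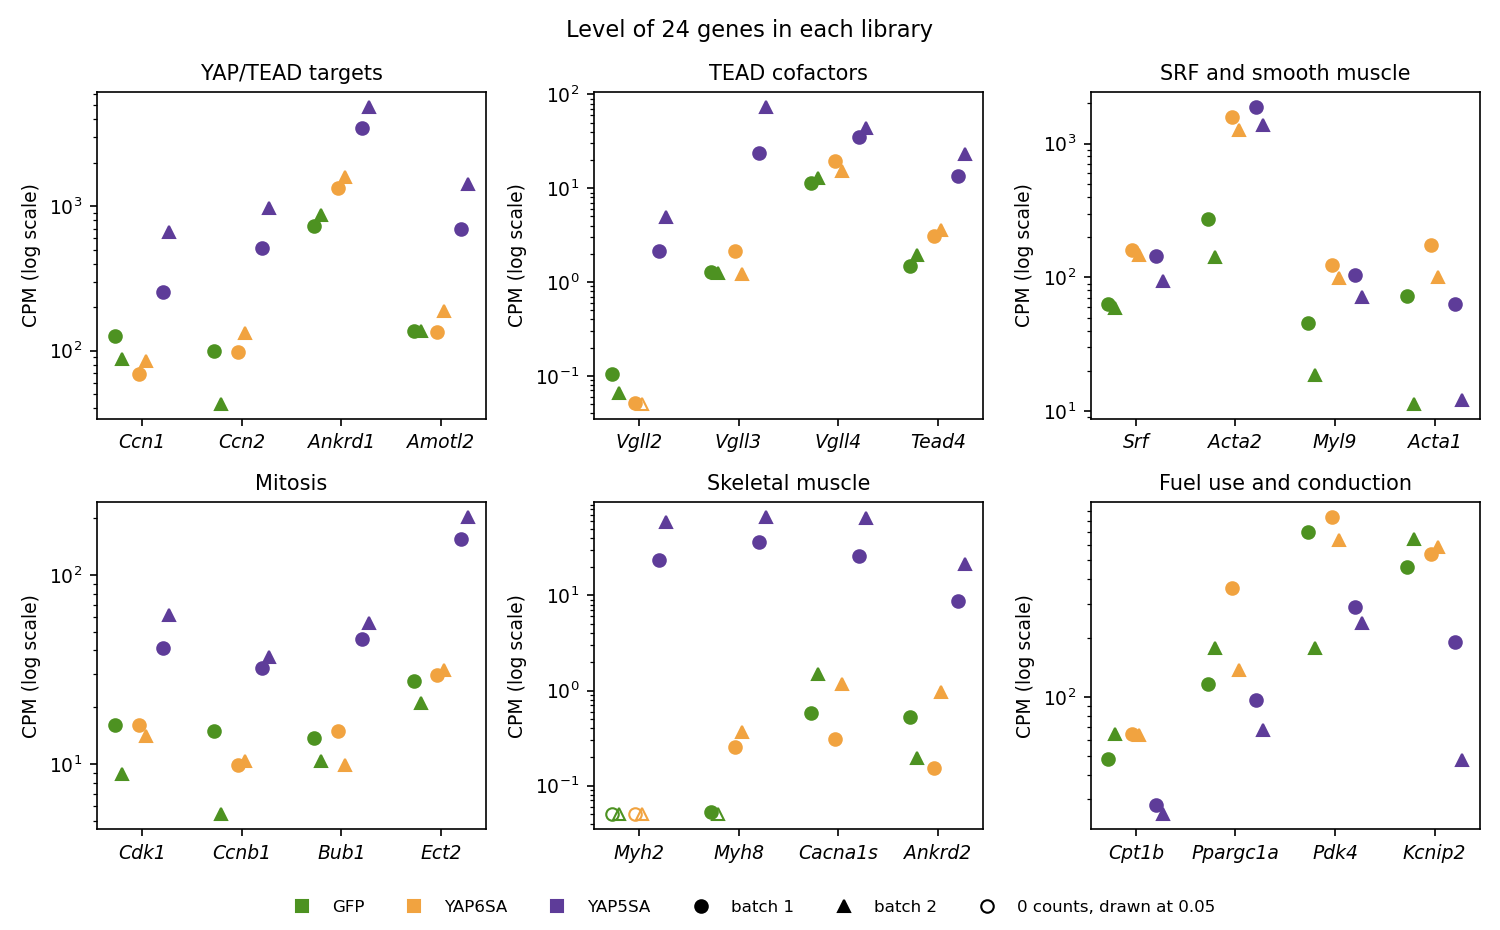
CPM (vertical axes, log scale) of 24 genes in each of the 6 libraries, in 6 panels by role. Green, orange and purple stand for GFP, YAP6SA and YAP5SA, circles for batch 1 and triangles for batch 2, with 1 symbol per library and open symbols at 0.05 for 0 counts. The YAP5SA symbols lie above those of YAP6SA for the TEAD targets, cofactors, mitotic and skeletal muscle genes, overlap them for Acta2 and Myl9, lie below them for Srf and Acta1, and below them for the genes of fuel use and conduction.

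The promoters of 5 genes are printed because they show how the motif of TEAD lies in genes that differ between the 2 forms: 3 of the TEAD targets, the TEAD cofactor gene Vgll3 described next, and skeletal actin Acta1, which fell. Each window runs from 250 bases before to 50 bases after the RefSeq start in build GRCm38.p6, 5′ to 3′ on the strand of the gene. Capitals mark GGAATG or its complement CATTCC, and in Acta1 also a CArG box, the motif of SRF.
Ccn1, chr3:145649936-145650235, minus strand: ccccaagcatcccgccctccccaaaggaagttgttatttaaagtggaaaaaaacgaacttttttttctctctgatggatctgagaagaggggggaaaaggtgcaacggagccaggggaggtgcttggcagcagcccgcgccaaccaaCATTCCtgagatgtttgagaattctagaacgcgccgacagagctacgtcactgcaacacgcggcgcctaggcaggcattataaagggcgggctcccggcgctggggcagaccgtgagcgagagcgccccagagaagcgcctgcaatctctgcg
Ankrd1, chr19:36119795-36120094, minus strand: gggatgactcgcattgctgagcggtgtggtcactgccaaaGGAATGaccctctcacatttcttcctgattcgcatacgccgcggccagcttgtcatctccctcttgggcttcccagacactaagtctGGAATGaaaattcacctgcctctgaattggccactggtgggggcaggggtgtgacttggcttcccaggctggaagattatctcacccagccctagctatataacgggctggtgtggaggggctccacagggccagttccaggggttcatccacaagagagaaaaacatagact
Amotl2, chr9:102717554-102717853, plus strand: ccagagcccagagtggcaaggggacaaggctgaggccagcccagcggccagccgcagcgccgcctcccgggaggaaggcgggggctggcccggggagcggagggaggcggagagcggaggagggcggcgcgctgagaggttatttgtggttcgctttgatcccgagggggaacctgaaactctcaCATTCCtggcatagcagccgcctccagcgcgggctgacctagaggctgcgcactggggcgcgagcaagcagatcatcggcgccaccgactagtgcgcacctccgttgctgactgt
Vgll3, chr16:65814939-65815238, plus strand: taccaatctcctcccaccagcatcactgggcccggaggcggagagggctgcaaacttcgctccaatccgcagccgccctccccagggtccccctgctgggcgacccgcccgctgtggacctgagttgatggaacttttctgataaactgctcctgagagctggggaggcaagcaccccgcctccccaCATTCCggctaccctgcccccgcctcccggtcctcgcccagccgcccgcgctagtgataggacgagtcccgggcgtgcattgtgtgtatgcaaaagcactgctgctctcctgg
Acta1, chr8:123894726-123895025, minus strand: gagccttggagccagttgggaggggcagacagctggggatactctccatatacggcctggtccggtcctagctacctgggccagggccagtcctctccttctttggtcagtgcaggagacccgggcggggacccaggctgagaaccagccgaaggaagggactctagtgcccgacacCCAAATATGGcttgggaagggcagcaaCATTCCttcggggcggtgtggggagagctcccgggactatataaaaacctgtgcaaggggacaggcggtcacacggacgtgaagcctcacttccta

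The motif GGAATG, on either strand, lay 103 to 98 bases before the start of Ccn1, 65 to 60 bases before that of Amotl2 and 63 to 58 bases before that of Vgll3, and at 2 places before that of Ankrd1. Acta1 held 1 match and 1 CArG box. Of the 9984 genes tested that matched a promoter window by symbol (75.6% of those tested), with 12797 windows, 12.4% of windows held GGAATG on either strand, against 14.7% of all 32851 windows of this length. The share was 15.7% (187 of 1190 windows) for genes higher in YAP5SA, 12.3% (89 of 721) for genes lower in YAP5SA, and 8 of 19 windows for the listed TEAD targets. The CArG box was in 2.27% of the windows of higher genes, 1.8% of those of lower genes and 1.35% of those of genes tested. These shares describe letters in short windows, were not tested, and say nothing of binding.

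In the list of the Hippo cascade and YAP partners, differences were fewer. Of 22 members tested, 6 rose and 1 fell, with a median log2 fold change of 0.25. Those that rose were Vgll2, Vgll3, Vgll4, Tead4, Amot and Mpdz, and 3 of them passed the filter on low values through the YAP5SA libraries alone. Among the higher members were 3 vestigial-like cofactors, which bind TEAD at the surface that YAP uses. Vgll3 passed the filter through the YAP5SA libraries alone, so its FDR is a description only. It was at 23.9 and 73.7 CPM with YAP5SA against 2.16 and 1.22 CPM with YAP6SA (log2 fold change 4.61, standard error 0.44, edgeR FDR 7.24e-06). Vgll4, a known repressor of TEAD output, was at 34.9 and 43.4 against 19.6 and 15.1 CPM (log2 fold change 1.17, edgeR FDR 0.00474). Vgll2, a cofactor of skeletal muscle, passed the filter in the same way as Vgll3. It had 1 count in the YAP6SA libraries together and 119 in the YAP5SA libraries, a ratio of 132 with a 95% counting interval from 23.2 to 5243. Tead4 itself rose from 3.08 and 3.60 CPM with YAP6SA to 13.6 and 23.4 CPM with YAP5SA (log2 fold change 2.42, edgeR FDR 1.86e-04). Mpdz, a multi-PDZ scaffold of cell junctions, was at 191 and 266 CPM with YAP5SA and 88.6 and 89.9 CPM with YAP6SA (log2 fold change 1.34, standard error 0.20, edgeR FDR 3.35e-04). GFP libraries had 74.00 and 99.4 CPM of Mpdz, so that its YAP6SA and GFP levels lay close together. Yap1 was at 141 and 104 CPM with YAP5SA and 123 and 131 CPM with YAP6SA, with groups that overlap and a log2 fold change of -0.069 (95% interval -0.48 to 0.34). Whether reads of the viral cassettes were counted on Yap1 was not tested, so these values do not compare the doses of the 2 forms.

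Ect2, the exchange factor that activates RhoA at the cleavage furrow, was at 155 and 203 CPM with YAP5SA against 29.5 and 31.4 CPM with YAP6SA (log2 fold change 2.54, standard error 0.20, edgeR FDR 1.07e-06). Rhoa was at 25.4 and 29.2 against 24.5 and 25.6 CPM and Rhobtb1 at 243 and 249 against 378 and 188 CPM, and the groups overlap for both. Their log2 fold changes of 0.12 (95% interval -0.37 to 0.61) and -0.12 (95% interval -0.62 to 0.39) did not pass the test, and that of Rhobtb1 had opposite signs in the batches.

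Genes of the SRF pathway and of smooth muscle, which serum response factor controls through the CArG box, moved in both directions. Of 23 tested, 4 rose (17.4%, against 9.28% of all genes tested) and 2 fell (8.7% against 5.22%), or 2 and 0 without the replicate block. The median log2 fold change was 0.21, or -0.031 without the YAP5SA library of batch 2. Acta2, smooth muscle actin, was at 1878 and 1371 CPM with YAP5SA, 1574 and 1264 CPM with YAP6SA and 272 and 142 CPM with GFP. Both variants were thus far above GFP and overlapped each other, with a log2 fold change between them of 0.19 (95% interval -0.30 to 0.67). Srf was at 146 and 94.6 CPM with YAP5SA, 160.4 and 147 CPM with YAP6SA and 63.4 and 59.5 CPM with GFP (log2 fold change of YAP5SA over YAP6SA -0.39, 95% interval -0.80 to 0.024). Myl9, a regulatory myosin light chain, was at 105 and 71.2, 125 and 99.4 and 45.8 and 18.5 CPM in that order (log2 fold change -0.36, 95% interval -0.75 to 0.026). Acta1, the skeletal actin that the fetal heart expresses, was at 63.3 and 12.2 CPM with YAP5SA, 175 and 99.9 CPM with YAP6SA and 72.7 and 11.3 CPM with GFP, and fell by 2.22 on the log2 scale (standard error 0.29, edgeR FDR 1.36e-04, and edgeR FDR 0.107 without the replicate block). Actins are nearly identical in coding sequence, and reads with several matches are set apart from the gene counts, so levels of single actins are uncertain. The calponin Cnn2 and the tropomyosin Tpm4 rose by 1.85 and 1.45, while Synpo2, a Z-disc actin-binding protein, fell by 1.20, a call lost without the replicate block. The SRF list had 8, 2, 4 and 1 genes higher with single libraries left out, in the order above.

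In the list of the actin cytoskeleton, 9 of 38 members rose and 1 fell (median 0.22). The largest rise was that of Cald1, caldesmon, which binds actin and myosin outside the sarcomere, at 196 and 306 CPM against 39.2 and 27.2 CPM (log2 fold change 2.91, edgeR FDR 3.98e-06). Other members that rose were the formin Fmnl2 (1.75), the actinin Actn1 (1.24) and nonmuscle myosin Myh9 (1.19). The cytoplasmic actins did not pass the test: Actg1 was at 1993 and 1264 against 2529.9 and 2672 CPM, and Actb at 1811 and 1815 against 1441 and 1604 CPM. Of 20 microtubule genes 5 rose and 2 fell (median 0.11, and 3 and 1 without the replicate block), with the tubulins Tubb5 (1.29) and Tuba1b (1.29) higher and Tuba8, a tubulin of striated muscle, lower by 1.76, with the same limit on near-identical tubulins. Immediate early genes, which signalling switches on within minutes, split as well: 8 of 27 rose and 3 fell (median 0.21, and 3 and 0 without the replicate block). Of the 8 that rose, 1 passed the filter through the YAP5SA libraries alone. Ier3 was at 69.7 and 117 against 31.9 and 27.4 CPM (log2 fold change 1.61). The orphan receptor gene Nr4a1 was at 196 and 119.5 against 266 and 224 CPM and the kinase gene Sik1 at 98.6 and 66.6 against 145 and 105 CPM, with 61.4 and 68.9 and 40.2 and 36.5 CPM in GFP, and their falls of 0.67 and 0.61 passed the test with the batch term (edgeR FDR 0.0314 and 0.0348) and not without it (edgeR FDR 0.177 and 0.178). With single libraries left out, in the order above, higher genes numbered 14, 8, 7 and 2 for actin, 6, 2, 3 and 0 for microtubules and 10, 4, 6 and 1 for immediate early genes. The medians of 2 of these lists changed sign: that of the microtubule genes was -0.032 without the YAP6SA library of batch 2, and that of the immediate early genes -0.031 without the YAP5SA library of batch 2.

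Cell cycle genes were higher with YAP5SA in each of the 5 lists of this kind. Of the genes of the mitotic spindle and kinetochore, 41 of 46 rose, with a median log2 fold change of 1.70. The counts were 13 of 15 for cytokinesis (median 1.71), 30 of 43 for DNA replication (median 1.15), 19 of 34 for cyclins, CDKs and E2F factors (median 1.03) and 15 of 25 for DNA repair (median 1.20), and in none of these lists did a member pass the test as lower. Without the replicate block the counts were 38, 11, 22, 14 and 11. Leaving out single libraries, in the order above, gave 43, 32, 35 and 13 for the spindle, 14, 11, 9 and 7 for cytokinesis, 33, 22, 20 and 13 for replication, 20, 10, 12 and 5 for cyclins, CDKs and E2F factors, and 17, 9, 12 and 4 for repair. Cdk1, the kinase of mitotic entry, was at 41.3 and 61.6 CPM with YAP5SA, 16.03 and 14.04 with YAP6SA and 16.1 and 8.84 with GFP (log2 fold change 1.75, standard error 0.24, edgeR FDR 2.28e-04). Its partner Ccnb1 was at 32.2 and 36.9 against 9.92 and 10.4 CPM (log2 fold change 1.76, edgeR FDR 2.28e-04), and the S phase cyclin Ccna2 at 21.7 and 25.98 against 8.12 and 9.65 CPM (log2 fold change 1.42, edgeR FDR 0.00204). For these 3 genes the lowest YAP5SA library lay above the highest YAP6SA library. E2f1, a driver of S phase entry, rose by 2.50 and the phosphatase Cdc25c, which activates Cdk1, by 2.38 on the log2 scale. Uhrf1, which copies DNA methylation at the fork, and Rrm2, a subunit of ribonucleotide reductase, rose by 2.02 and 2.28. Among spindle genes, the kinetochore scaffold Knl1 (2.54, through YAP5SA alone past the filter), the motor Kif11 (2.20) and Ska1 (2.20) had the largest rises, and the furrow genes Anln and Kif23 rose by 1.96 and 1.90. In repair, Fancd2 and Rad54l rose by 2.22 and 2.12, and 1 of the 15 genes that rose passed the filter through the YAP5SA libraries alone. Some abundant members did not pass the test. Cdk2 was at 133 and 136 against 97.5 and 113 CPM (log2 fold change 0.36, 95% interval -0.028 to 0.75) and Cdk4 at 131 and 158 against 124 and 142 CPM (log2 fold change 0.12, 95% interval -0.27 to 0.50). Cenpa, the histone of the centromere, was at 286 and 205 against 291 and 291 CPM, with a log2 fold change of -0.27, the lowest of the spindle list.

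**Figure D4:**
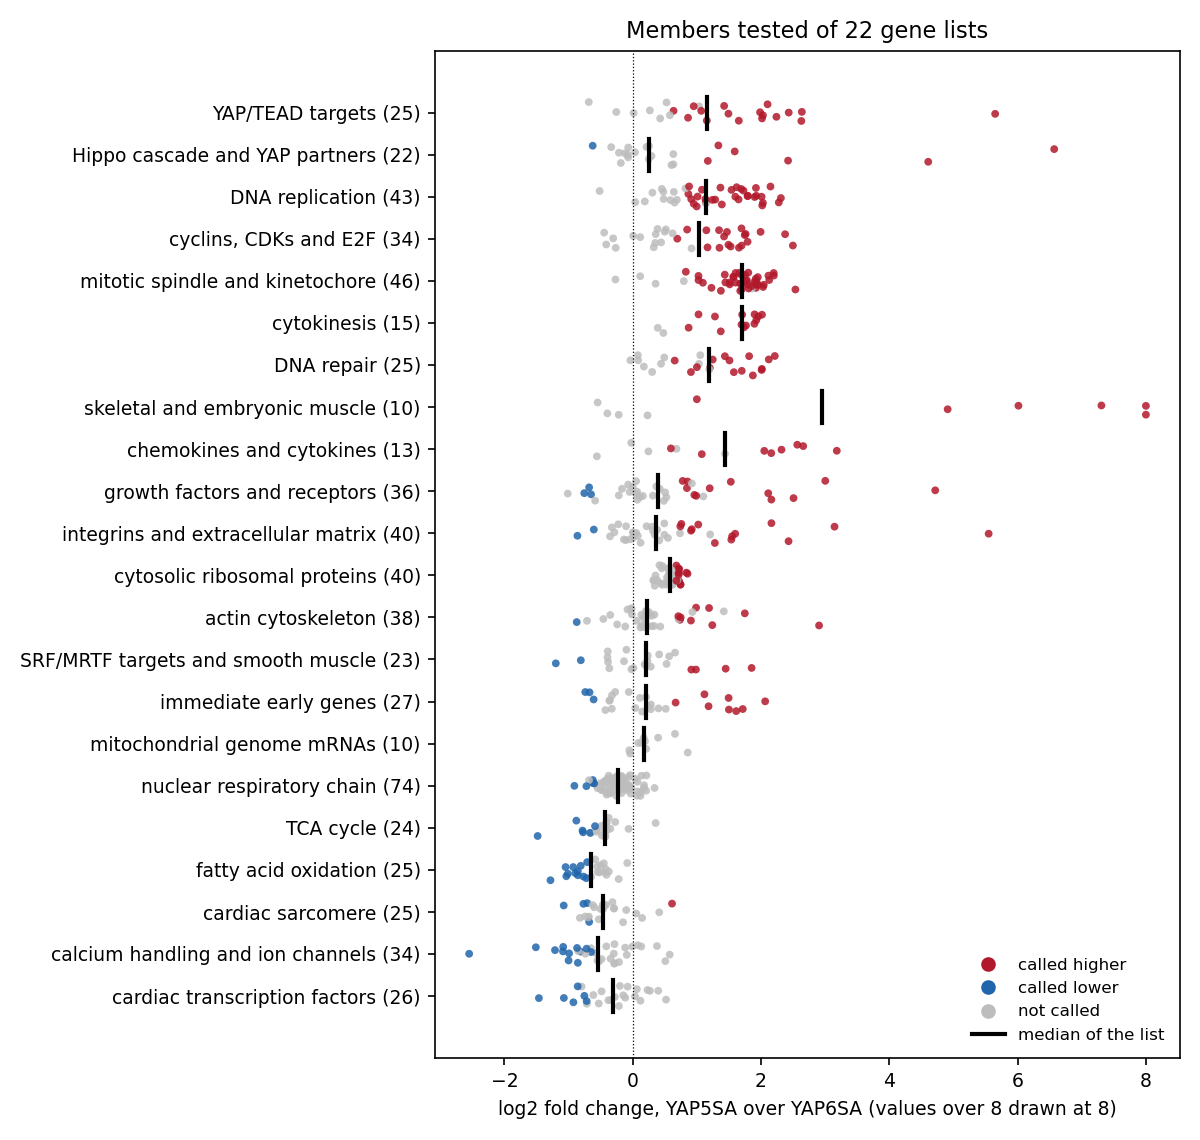
Log2 fold change of YAP5SA over YAP6SA (horizontal axis) for the members tested of 22 gene lists, 1 point per gene, with the number tested in brackets. Red and blue points are genes called higher and lower, grey points genes not called, black bars the median of each list and the dotted line the median of all genes tested. The 4 lists of replication, cyclins, spindle and cytokinesis lie to the right, with medians from 1.03 to 1.71, and the lists of fatty acid oxidation, TCA cycle and calcium handling to the left, with medians from -0.65 to -0.43; 2 skeletal myosins beyond 8 are drawn at 8.

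Among the largest differences were those of skeletal muscle genes that were at or near 0 with YAP6SA and GFP. Myh2, the myosin of fast oxidative skeletal fibres, had 1388 counts over both YAP5SA libraries and 0 over both YAP6SA libraries. It was thus at least 247-fold higher against a floor of 3 counts in a library of the mean YAP6SA size (0.167 CPM). Myh1, its neighbour on chromosome 11, had 626 counts against 0 (at least 110.3-fold). Myh8, the perinatal myosin of the same cluster (chr11:67277124-67308634 in GRCm38), was at 36.2 and 66.5 CPM with YAP5SA, 0.257 and 0.366 with YAP6SA and 0.0527 and 0 with GFP (log2 fold change 7.31, standard error 0.35, edgeR FDR 1.82e-08). These myosins are close paralogs, and how reads were split among them is uncertain. Cacna1s, the calcium channel of the skeletal muscle T tubule, was at 26.1 and 65.8 against 0.308 and 1.16 CPM (log2 fold change 6.01, edgeR FDR 5.25e-08), and Mybph, a myosin-binding protein, at 2.90 and 4.38 against 0.103 and 0.122 CPM. Both YAP5SA libraries held these RNAs, and the library of batch 2 held more of each. Only 10 of the 27 genes listed for skeletal and embryonic muscle passed the filter on low values, 5 of them through the YAP5SA libraries alone, and 6 were higher (median 2.96); since such genes had to differ, the count and the median describe them and support nothing. Other muscle genes stayed at or near the floor. The myogenic factor genes Myod1 and Myf6 and the fast myosin Myh4 had 0 counts in every library. Myog, which drives myoblast differentiation, had 19 and 52 counts in the YAP5SA libraries and 0 in all others, and was not tested for its low level; these last 4 genes were chosen after their values were seen. Of the muscle genes expressed by the heart as well, the myosin chaperone gene Unc45b was at 245 and 185 against 297 and 325 CPM and did not pass the test.

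Genes outside the muscle lists were among the largest rises too. Cdk15, a little-studied kinase, had 584 counts with YAP5SA and 0 with YAP6SA, at least 103-fold higher. Atp6v1c2, a subunit of the vacuolar proton pump, had 607 counts against 3, a ratio of 224 with a 95% counting interval from 76.2 to 1089. The noncoding RNA Gm12153 had 626 counts against 2, a ratio of 346 with an interval from 95.5 to 2866. Igfbp2, which binds insulin-like growth factors, was at 9.05 and 30.9 against 0.206 and 0 CPM, the epithelial envelope gene Scel at 26.6 and 73.8 against 0.668 and 0 CPM, and the endocytic receptor gene Lrp2 at 10.6 and 25.01 against 0.206 and 0.305 CPM. Their log2 fold changes were 7.19, 6.91 and 6.03 in the fit, values that depend on how the fit treats counts near 0, and the YAP5SA libraries lay above both YAP6SA libraries for each. Zbtb8b, a zinc finger gene, was at 44.8 and 158 against 1.44 and 0.671 CPM (log2 fold change 6.27). These 7 genes passed the filter on low values through the YAP5SA libraries alone, so their differences are a description. Among genes of the fetal program, the RNA-binding protein gene Igf2bp1, which is expressed before birth, was at 36.9 and 64.97 against 1.49 and 3.36 CPM (log2 fold change 4.43, edgeR FDR 1.65e-07), and the stretch-responsive Ankrd2 at 8.78 and 21.4 against 0.154 and 0.977 CPM (log2 fold change 4.87, through YAP5SA alone past the filter). The natriuretic peptide gene Nppb was at 529.9 and 884 against 381 and 375 CPM, a log2 fold change of 0.86 that passed the test with the batch term (edgeR FDR 0.0199) and not without it (edgeR FDR 0.0825). In all, 4 of 18 members of the list of natriuretic peptides and fetal genes rose and 3 fell (2 and 0 without the replicate block), with a median of -0.096, or 0.014 without the YAP6SA library of batch 1, and 5, 2, 2 and 2 rose with single libraries left out, in the order above. Of 9 nuclear long noncoding RNAs 2 rose and 0 fell. Mir99ahg, the host RNA of a microRNA cluster, was at 602 and 1040.2 against 71.8 and 123 CPM (log2 fold change 3.08, edgeR FDR 4.54e-07), and Malat1 at 760.1 and 833 against 896 and 1079.7 CPM. The most abundant genes that rose, next to Ankrd1, were Phldb2, which anchors microtubules at the cell cortex (1.61), the spectrin Sptan1 (1.43), the heparan sulfate proteoglycan Agrn (1.04) and the GTPase-activating protein gene Arhgap29 (0.70, lost without the replicate block).

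Genes of fatty acid oxidation and of the TCA cycle that passed the test were lower with YAP5SA. All 25 genes of fatty acid oxidation had a negative log2 fold change, with a median of -0.65, and 12 passed the test. Cpt1b, which brings fatty acids into the mitochondria of muscle, was at 27.96 and 25.1 CPM with YAP5SA, 64.8 and 63.97 CPM with YAP6SA and 47.9 and 65.00 CPM with GFP (log2 fold change -1.28, standard error 0.20, edgeR FDR 5.16e-04). The YAP5SA and YAP6SA libraries do not overlap, and the YAP6SA libraries lay within the GFP range. Mlycd, which removes the inhibitor of that step, fell by 1.03, and the dehydrogenase Acadvl by 1.01. Ppargc1a, the coactivator that raises mitochondrial genes, was at 96.9 and 67.6 against 360.2 and 138 CPM (log2 fold change -1.46, edgeR FDR 4.25e-04, and edgeR FDR 0.0533 without the replicate block), and its relative Ppargc1b fell by 0.92. Of the TCA cycle and its pyruvate entry, 6 of 24 genes fell and 0 rose (median -0.43). Among them Pdk4, a kinase that shuts pyruvate out of the cycle when fat is burned, was at 287 and 238 CPM with YAP5SA, 833 and 639 with YAP6SA and 696 and 178 with GFP (log2 fold change -1.48, standard error 0.20, edgeR FDR 2.08e-04). Of the nuclear genes of the respiratory chain 5 of 74 (6.76%) were lower, a share near the 5.22% of all genes tested, and 0 higher (median -0.22). Ndufb10, a subunit of complex I, fell by 0.91 (edgeR FDR 0.00655), while Ndufa1, another, was at 58.3 and 87.02 against 64.2 and 61.8 CPM with a log2 fold change of 0.18 (95% interval -0.25 to 0.61). None of the 10 mRNAs of the mitochondrial genome that were tested passed (median 0.18). These falls depended on the batch term: without the replicate block, 3 genes of fatty acid oxidation, 2 of the TCA cycle and 0 of the respiratory chain were called lower, with medians that stayed negative. Leaving out single libraries, in the order above, gave 20, 7, 10 and 1 for fatty acid oxidation, 20, 4, 1 and 0 for the TCA cycle and 19, 3, 1 and 0 for the respiratory chain.

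Glycolysis was mixed, with 2 of 25 genes higher (8%, against 9.28% of all genes tested) and 4 lower (16% against 5.22%). Its median was -0.30, and 2 and 1 genes were called without the replicate block. Of the 2 higher genes, 1 passed the filter through the YAP5SA libraries alone. The glucose transporter gene Slc2a1 was at 19.05 and 51.7 against 6.83 and 5.37 CPM (log2 fold change 2.37, edgeR FDR 4.55e-04), whereas Pfkfb2, which makes the activator of phosphofructokinase in the heart, was at 190.1 and 104 against 399 and 295 CPM (log2 fold change -1.28, edgeR FDR 4.92e-04). For the pentose phosphate pathway and nucleotide synthesis, 5 of 25 rose and 1 fell (median 0.24), and 1 rose without the replicate block. That gene was Mthfd2, of mitochondrial folate metabolism, which rose by 1.76. With single libraries left out, in the same order, glycolysis had 8, 2, 1 and 1 genes lower and the pentose phosphate list 8, 1, 1 and 0 higher.

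Genes of mature CM function that passed the test were lower too, with few exceptions. Of 34 genes of calcium handling and ion channels, 12 fell and 0 rose (median -0.54). Kcnip2, a subunit of the channels of the transient outward current, was at 192 and 47.8 CPM with YAP5SA, 542 and 587 with YAP6SA and 461 and 643 with GFP (log2 fold change -2.55, standard error 0.37, edgeR FDR 3.26e-04). The YAP5SA library of batch 2 held the least, and the YAP6SA and GFP libraries overlapped. The inward rectifier gene Kcnj2 was at 22.02 and 14.9 against 50.4 and 52.9 CPM (log2 fold change -1.51, edgeR FDR 4.63e-04) and the calcium channel subunit gene Cacnb2 at 230.3 and 231 against 535 and 449 CPM (log2 fold change -1.09, edgeR FDR 0.00184). Without the replicate block these 3 genes were the ones of the list still called. The release channel gene Ryr2 and the pump inhibitor gene Pln fell by 0.85 and 1.00 with the batch term (edgeR FDR 0.0275 and 0.00724) and not without it (edgeR FDR 0.119 and 0.0566), and Atp2a2, the pump itself, was at 3353 and 2282 against 4251 and 3981 CPM. In the sarcomere, 4 of 25 genes fell and 1 rose (median -0.47), and none was called without the replicate block. The number of lower genes was 12 with no filter, 10 by the likelihood ratio test and 7 by DESeq2. It was 2 with all 6 libraries in the fit, and 0 against a fold change of 1.5 or at an FDR threshold of 0.01. Myh6, the main adult myosin of the mouse heart, was at 13348 and 8792 against 16589 and 22117 CPM with a log2 fold change of -0.82 (95% interval -1.60 to -0.049) that did not pass the test (edgeR FDR 0.151). The atrial light chain Myl7 was the member that rose, by 0.61. Among cardiac transcription factors and coactivators, 6 of 26 fell and 0 rose (median -0.31), against 1 that fell and 0 that rose without the replicate block. Besides the Ppargc1 genes, those that fell included the ventricular factor Irx4, with 199 and 131 against 289 and 396 CPM (log2 fold change -1.07), a call that the fit without the block did not give. The numbers of lower genes with single libraries left out, in the order above, were 18, 5, 5 and 3 for calcium handling and ion channels, 17, 0, 1 and 0 for the sarcomere and 8, 3, 3 and 2 for the transcription factors. The summed CM markers moved in the same direction as these genes. They include genes of these lists, such as Ryr2, Pln and Myh6, so this is no separate observation. The part of the CM markers in the result was not tested.

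Among the largest falls were those of Gnb3, a G protein subunit, at 4.05 and 2.5 against 15.7 and 23.7 CPM (log2 fold change -2.58, edgeR FDR 2.49e-04), Kcnip2, Aspdh (-2.43) and Rtn4r, a receptor of myelin inhibitors (-2.34). Rtn4r was at 26.00 and 7.5 CPM with YAP5SA, 78.6 and 66.8 with YAP6SA and 33.5 and 35.3 with GFP, so that YAP6SA stood above both other groups. The 5 most abundant genes that fell included Ivns1abp, an actin-binding Kelch protein, at 4588 and 3379 against 7447 and 8230.0 CPM (log2 fold change -0.99), and Speg, a kinase of the T tubule junction, at 1737 and 1105 against 2708 and 2416 CPM (log2 fold change -0.88). Without the replicate block neither passed the test (edgeR FDR 0.0534 and 0.0942).

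Genes of secreted factors that passed the test were mostly higher with YAP5SA. Of 36 growth factors and receptors tested, 12 rose and 3 fell (median 0.40, and 6 and 0 without the replicate block). Of the 12 that rose, 3 passed the filter through the YAP5SA libraries alone. Inhba, the activin A subunit, passed the filter through the YAP5SA libraries alone and was at 28.97 and 92.8 against 2.47 and 1.40 CPM (log2 fold change 4.72, standard error 0.44, edgeR FDR 5.55e-06), and Tgfb3 at 81.2 and 132 against 16.7 and 9.77 CPM (log2 fold change 3.0, edgeR FDR 8.57e-06). Nrg1, a neuregulin known to stimulate CM division, passed the filter through the YAP5SA libraries alone and was at 7.56 and 11.5 against 3.03 and 0.671 CPM (log2 fold change 2.51, edgeR FDR 0.00764, and edgeR FDR 0.0596 without the replicate block). For integrins and extracellular matrix the counts were 13 higher and 2 lower of 40 (median 0.36), and 4 and 0 without the replicate block. Of the 13 higher genes, 2 passed the filter through the YAP5SA libraries alone. Col12a1, a collagen that bridges fibrils, was at 121 and 353 against 4.88 and 3.85 CPM (log2 fold change 5.55, standard error 0.36, edgeR FDR 2.32e-07), while Col3a1, a fibrillar collagen, was at 559 and 329 against 731 and 395 CPM and did not pass. Chemokines and cytokines had 8 of 13 members higher and 0 lower (median 1.44, and 6 and 0 without the replicate block). Of the 8 higher members, 1 passed the filter through the YAP5SA libraries alone. Lif, a cytokine of the interleukin 6 family, was at 10.9 and 34.6 against 2.26 and 2.01 CPM (log2 fold change 3.18, edgeR FDR 1.28e-04), and Ccl2, which attracts monocytes, at 16.5 and 50.8 against 5.75 and 4.09 CPM (log2 fold change 2.57, edgeR FDR 5.36e-04), though reads of its close paralogs could be split among them. Csf1, the growth factor of macrophages, was at 79.5 and 212, 66.9 and 56.6 and 104 and 91.6 CPM with YAP5SA, YAP6SA and GFP (log2 fold change of YAP5SA over YAP6SA 1.08, edgeR FDR 0.0225, and edgeR FDR 0.0935 without the replicate block). Of 15 interferon response genes 2 rose (13.3%, against 9.28% of all genes tested), with a list median of 0.43. They were Ifit2 (1.69) and Ifit3 (1.95, lost without the replicate block), and 1 of the 2 passed the filter through the YAP5SA libraries alone. Higher genes with single libraries left out, in the order above, numbered 18, 7, 7 and 2 for growth factors and receptors, 17, 5, 10 and 2 for integrins and matrix and 9, 3, 6 and 3 for chemokines and cytokines.

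Some markers of other cells differed as well, but most of those tested did not pass the test. Of the epicardial markers Wt1, a transcription factor of the epicardium, was at 94.7 and 157 against 23.8 and 14.7 CPM (log2 fold change 2.70, edgeR FDR 1.75e-05) and Tbx18 at 65.8 and 151 against 38.5 and 33.8 CPM (log2 fold change 1.47, edgeR FDR 0.00181), the 2 of 7 tested that rose. The summed level of the list, most of it from these 2 genes, was 206 and 358 CPM against 106 and 67.2 CPM. The surface marker of the epicardium Msln was at 15.9 and 9.89 against 19.8 and 10.6 CPM, with overlapping groups. Macrophage markers summed to 115 and 174 CPM with YAP5SA and 95.5 and 121 CPM with YAP6SA, with 2 of 12 called, Ccr2 and Itgam, which both passed the filter through the YAP5SA libraries alone and were not called without the replicate block. Of the collagen receptor Ddr2 there were 101 and 236 against 33.1 and 17.9 CPM (log2 fold change 2.65, edgeR FDR 1.93e-04), while Postn was at 359.6 and 188 against 378 and 206 CPM. Mural markers summed to 905 and 685 against 1149 and 1024 CPM and those of Schwann cells and neurons to 88.2 and 107 against 63.9 and 76.1 CPM. Erythroid markers summed to 49.6 and 33.1 against 64.2 and 24.3 CPM, and the T cell, B cell and neutrophil markers to 9.89 and 15.99 against 9.58 and 14.5 CPM, with Ly6g and Mpo at 0 counts in all libraries. The part of these cells in the differences of secreted factors was not tested.

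In the integrated stress response, 2 of 22 genes rose (9.09%) and 1 fell (4.55%), shares near the 9.28% and 5.22% of all genes tested. The median was 0.19, or -0.19 without the YAP5SA library of batch 2. Among them, the amino acid transporter gene Slc7a5 was at 20.5 and 33.3 against 4.52 and 2.81 CPM (log2 fold change 2.84, edgeR FDR 8.01e-05). The death-related factor gene Ddit3 was at 55.2 and 39.8 against 99.9 and 109.5 CPM (log2 fold change -1.16, edgeR FDR 0.00125). Of p53 targets and apoptosis genes 6 of 21 rose and 1 fell (median 0.46, and 3 and 0 without the replicate block), among them the survival genes Bcl2 (1.47) and Bcl2l1 (1.04). Cytosolic ribosomal protein genes all had a positive log2 fold change, 40 of 40, with a median of 0.58 and 12 called, and 0 called without the replicate block. Within batch 1 their median difference was 0.21 and within batch 2 1.03. Higher genes with single libraries left out, in the order above, numbered 6, 1, 2 and 1 for the stress response, 8, 1, 3 and 0 for p53 targets and 39, 0, 16 and 0 for ribosomal proteins. Rpl3, of the large subunit, was at 405 and 542 against 282 and 291 CPM (log2 fold change 0.71, edgeR FDR 0.0273). Ribosomal protein genes have many processed copies in the genome, and reads that fit a copy as well are not in the counts. Arel1, a ubiquitin ligase gene, was at 78.9 and 93.96 against 67.8 and 80.9 CPM, with a log2 fold change of 0.22 (95% interval -0.17 to 0.60). Since the libraries do not mark the strand, reads of a gene and of one that overlaps it on the other strand cannot be told apart.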

How the data were processed

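Nuclear RNA of PCM1-enriched CM nuclei was sequenced in 6 libraries, of which the 4 from YAP hearts were compared. The authors mapped reads with STAR to mm10 (Ensembl GRCm38.94) and deposited raw counts per gene, with no normalization, and reads with several matches or no gene were kept in rows of their own, which were left out. Counts were analysed in R 4.3.3 with edgeR 4.0.16 (quasi-likelihood test, TMM scaling, terms for batch and group, Benjamini-Hochberg FDR under 0.05), after the filter on median log2 CPM above 1 in either group. Levels with YAP5SA and YAP6SA use TMM factors of these 4 libraries and levels with GFP those of all 6. Within batches, log2 CPM differences used a prior count of 2. Standard errors are the log2 fold change divided by the root of the F statistic. The pipeline was tested on simulated data. Same-numbered libraries deviated together from their group means only weakly (correlation 0.174). The pairing rests on the labels, which give the number as a batch. Named genes were the 15 largest changes in each direction with a mean CPM of at least 5, the 6 largest called and 3 most abundant members of each list, the 5 most abundant called genes in each direction, and genes the study names. The members and lists were chosen with earlier results of these data known. Alternatives used limma 3.58.1 and DESeq2 1.42.0. Gene positions are of GENCODE in GRCm38 and promoter windows of RefSeq in GRCm38.p6. Some items are not reported here.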

Additional observations from a re-analysis of the deposited data

How the results depend on the processing

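Directions held more often than calls, in fits that all reuse libraries of the comparison. Against 1226 higher and 690 lower genes, the fit without the replicate block that pairs libraries by batch gave 723 and 131, a test against a fold change of 1.5 gave 594 and 112, an FDR threshold of 0.01 gave 750 and 226, and a threshold of 0.1 gave 1072 lower genes. Leaving out single libraries gave 326 to 2154 higher and 68 to 1892 lower genes. Counts stayed within 1.5 times with RLE or upper quartile scaling, with no filter or at least 10 counts in each library, with the likelihood ratio test and limma-voom, with DESeq2 (934 higher and 469 lower) and with all 6 libraries in the fit. No called gene turned its direction under any of these settings, and 56 of the 103 called genes named in the text kept their call under each of the 16 settings that tested them. Without the block, 21 of the named genes lost their call, and none changed direction. The cause of these changes was not tested.

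Medians of several gene lists moved when a library was left out. Their ranges over the libraries left out were 0.95 to 1.55 for the TEAD targets, 1.37 to 1.92 for cytokinesis, 0.89 to 1.25 for DNA repair, -0.62 to -0.32 for the TCA cycle, 0.023 to 0.33 for mitochondrial mRNAs, -0.39 to -0.21 for glycolysis, 0.094 to 0.34 for pentose phosphate and nucleotide genes, -0.66 to -0.29 for calcium and ion channels, -0.42 to -0.18 for cardiac transcription factors, -0.19 to 0.014 for natriuretic and fetal genes, -0.031 to 0.26 for SRF targets, 0.16 to 0.63 for p53 targets, 0.31 to 0.52 for the interferon response, -0.19 to 0.56 for the integrated stress response, -0.031 to 0.45 for immediate early genes and -0.032 to 0.25 for microtubule genes. The median of the pentose phosphate list was 0.22 with upper quartile scaling and 0.23 with all 6 libraries. That of the natriuretic and fetal list was -0.12 with upper quartile scaling, -0.12 with DESeq2, -0.060 with limma-voom, -0.062 without the block and -0.075 with all 6 libraries. With at least 10 counts in each library the skeletal muscle median was -0.21, since that filter drops the genes near 0 with YAP6SA. Log2 fold changes of genes not called changed sign with a library left out for Acta2 (-0.014 to 0.37), Ndufa1 (-0.081 to 0.41), Rhobtb1 (-0.74 to 0.48) and Yap1 (-0.29 to 0.15).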
